A study of Mus musculus with 9 samples.

Results

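Fatty acid oxidation and ketone body formation were followed through 39 genes in the livers of mice on a methionine- and choline-deficient diet, with and without a plant polysaccharide. The genes were taken from the deposited expression table by symbol, 39 of its 21936 rows, and are ordered by role. They comprise 6 genes of fatty acid activation and mitochondrial entry, 12 of the mitochondrial beta-oxidation spiral, 3 of electron transfer from that spiral, 7 of peroxisomal oxidation, 5 of omega oxidation, the ketone body enzyme Bdh1, and 5 regulators and fasting-response genes. The first 3 groups, 21 genes, are called mitochondrial here. All 39 genes passed the filter on low values, which required at least 3 of the 9 libraries to reach 0.1 FPKM (fragments scaled to gene length and to library size) and which 13817 genes passed in all.

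The livers came from wild-type male C57BL/6 mice, bought at 9 weeks of age, kept for 1 week and then fed for 4 weeks, with RNA taken from the right lobe. HGPP mice ate the deficient diet and were gavaged with polysaccharides of Gynostemma pentaphyllum at 300 mg/kg in 0.5% sodium carboxymethylcellulose (CMC-Na). MCD mice ate the same deficient diet and MCS mice ate its methionine- and choline-sufficient counterpart, and both received 0.5% CMC-Na alone. Each group had 3 libraries, each labelled as a separate liver. The deficient diet is a model of steatohepatitis in which the liver cannot make enough phosphatidylcholine to export fat, and it is driven by nutrient lack rather than by overfeeding.

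In liver, long-chain fatty acids are joined to coenzyme A, carried through the mitochondrial membranes as carnitine esters and shortened by 4 repeated reactions to acetyl-CoA, which hepatocytes turn into ketone bodies during fasting. Very long and branched fatty acids are shortened first in peroxisomes, and cytochrome P450 enzymes of the Cyp4a family start a side route by oxidising the omega end. Many of these genes are targets of PPAR-alpha, a nuclear receptor that fatty acids activate and that is best known in liver for the response to fasting.

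The libraries held 13355284 to 15691031 fragments in HGPP, 11492657 to 16702368 in MCD and 14964992 to 18902845 in MCS, recovered from the step between low values. Hepatocyte markers were abundant in all 9 libraries, and those of adipocytes and muscle were at or near 0. Most genes lay higher on the deficient diet on the FPKM scale: the median log2 fold change over all genes tested was 0.33 in HGPP vs MCS and 0.40 in MCD vs MCS, and -0.07 in HGPP vs MCD. Scaling by the median of ratios to the average library, a second way of setting library size, brought these medians to 0.01, 0.02 and -0.01. A fold change near 0 on the FPKM scale is therefore below that of most genes when a deficient-diet group is set against MCS. All fold changes are on the log2(FPKM + 0.1) scale. They were tested with limma within each pair of groups, and p-values were adjusted over all 13817 genes.

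**Figure D1:**
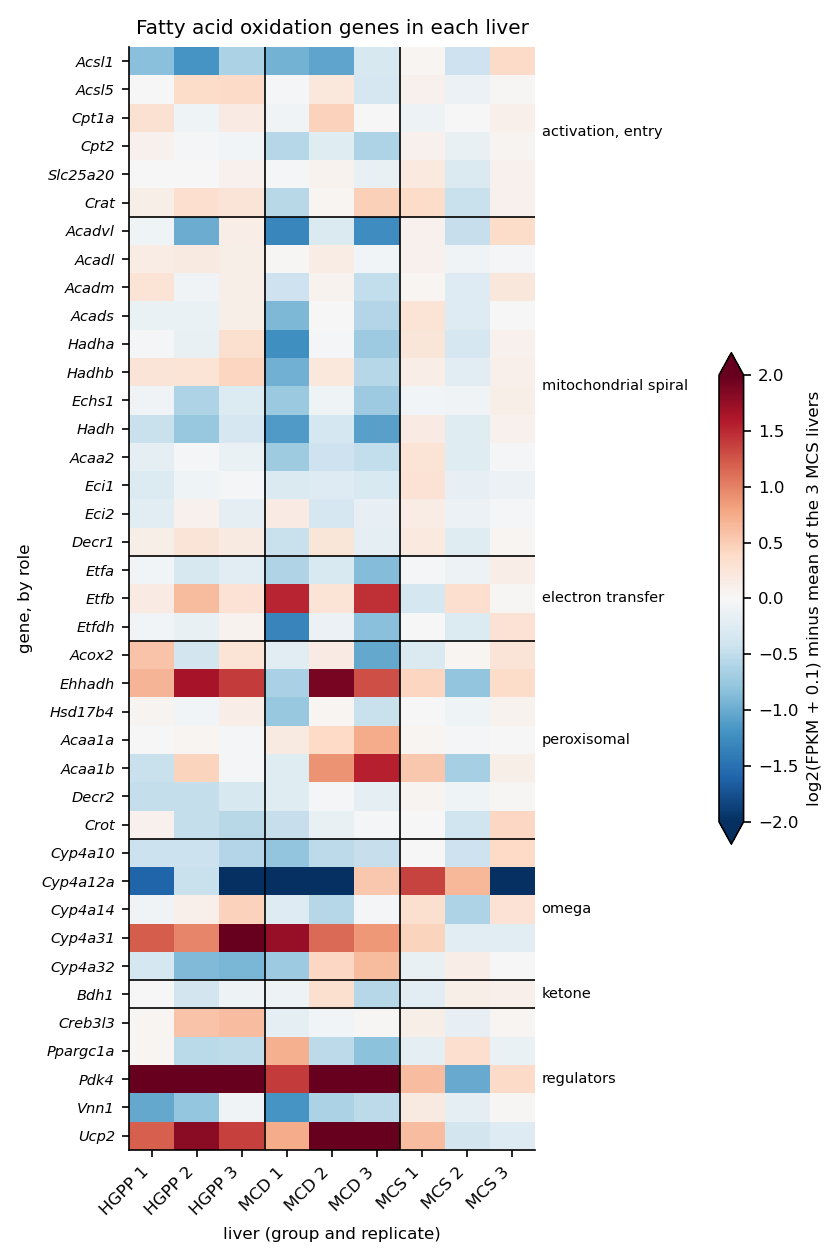
Each row is 1 of the 39 genes, grouped by role, and each column is 1 liver (HGPP, MCD, MCS). Color gives log2(FPKM + 0.1) minus the mean of the 3 MCS livers, with colors saturated beyond 2 in either direction. Most rows of the mitochondrial spiral are pale in HGPP and blue in MCD replicates 1 and 3, and Pdk4, Ucp2 and Cyp4a31 are red in all 6 livers on the deficient diet.

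Between HGPP and MCD livers, no member passed an adjusted p of 0.05, and 3 of all genes tested did (0.0217%), all lower in HGPP. At an unadjusted p under 0.05, 4 of 39 members were higher in HGPP (Cpt2, Hadha, Hadhb and Etfdh), against 4.0% of all genes, and 1 was lower (Cyp4a32), against 9.69%. The thresholds of the study, a change of more than 1 on the log2 scale and an unadjusted p below 0.05, were met by 0 members, against 6.09% of all genes. The median fold change of the members was 0.20 on the log2 scale, with 27 above 0 and 12 below, against -0.07 over all genes. By role, the median was 0.37 in the mitochondrial spiral, where all 12 genes lay above 0, 0.39 over the electron transfer genes, 0.16 in activation and entry, 0.11 in omega oxidation and -0.10 in peroxisomal oxidation. With each liver left out in turn, these medians ranged from 0.23 to 0.53 in the spiral, 0.25 to 0.54 in electron transfer, 0.024 to 0.22 in activation and entry and 0.012 to 0.17 in omega oxidation, and from -0.32 to 0.018 in peroxisomal oxidation, whose sign turned. The lowest of the 12 spiral genes was at 0.0014. Of the 12, 11 lay above 0 with quantile normalization and with a voom fit on recovered reads. The same count held without HGPP replicate 2, MCD replicate 2 or MCD replicate 3. The HGPP and MCD livers did not overlap for Cpt2, Hadhb, Acaa2 and Creb3l3, all higher in HGPP (5.83% of all genes), nor for Acaa1a and Decr2, lower in HGPP (11.3%). Without MCD replicate 1, 443 of all genes passed the adjusted p, and Cyp4a32 was the 1 member among them, with a log2 fold change of -1.24.

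MCD livers set against MCS livers gave 6 members past the adjusted p, against 22.1% of all genes. Pdk4, Ucp2, Cyp4a31 and Etfb rose (4 of 39, against 19.6% of all genes), and Hadh and Vnn1 fell (2 of 39, against 2.55%). The median of the members was -0.21 with 10 of 39 above 0, against 0.40 over all genes. Within the mitochondrial spiral it was -0.47 and 1 of 12 genes lay above 0. The thresholds of the study were met by 4 members, all higher (21.3% of all genes in either direction). The groups did not overlap for 8 members lower in MCD (Etfa, Cpt2, Acaa2, Echs1, Eci1, Hadh, Cyp4a10 and Vnn1, against 5.08% of all genes) and 4 higher (Acaa1a, Cyp4a31, Pdk4 and Ucp2, against 38.1%). Under median-of-ratios scaling, 13 members fell and 1 rose, against 1019 lower and 1231 higher of all 13817 genes. The median of the members was -0.63 there, and the spiral's median was -0.89 with 6 of its 12 genes called lower. The number of members called was 5, 13 and 4 without MCD replicates 1, 2 and 3 in turn, and 3, 4 and 1 without MCS replicates 1, 2 and 3 in turn. Of the 13 without MCD replicate 2, 10 were lower. Of all genes, 3238, 1894 and 1179 were called higher and 391, 423 and 175 lower without MCD replicates 1, 2 and 3. Without MCS replicates 1, 2 and 3, 1358, 1587 and 1130 were called higher and 199, 199 and 118 lower.

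In HGPP vs MCS, 7 members passed the adjusted p, against 18.8% of all genes. Pdk4, Ucp2, Cyp4a31 and Ehhadh rose (4 of 39, against 16.4% of all genes), and Acsl1, Cyp4a32 and Decr2 fell (3 of 39, against 2.48%). The median of the members was -0.00 with 19 of 39 above 0, against 0.33 over all genes, and that of the spiral was -0.08. The thresholds of the study were met by 4 members, all higher (12.4% of all genes in either direction). HGPP and MCS livers did not overlap for 6 members higher in HGPP (36.7% of all genes) and 6 lower (4.87%). Under median-of-ratios scaling 5 members fell and 1, Pdk4, rose, against 671 lower and 704 higher of all 13817 genes. The median of the members was -0.35 there. The number of members called was 6, 3 and 5 without HGPP replicates 1, 2 and 3 in turn, and 5, 4 and 3 without MCS replicates 1, 2 and 3 in turn. Of all genes, 1503, 872 and 1285 were called higher and 313, 153 and 170 lower without HGPP replicates 1, 2 and 3. Without MCS replicates 1, 2 and 3, 1718, 971 and 1240 were called higher and 307, 162 and 147 lower. This comparison shares its MCS livers with the previous one and its HGPP livers with the first, so the 3 are not independent of each other.

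**Figure D2:**
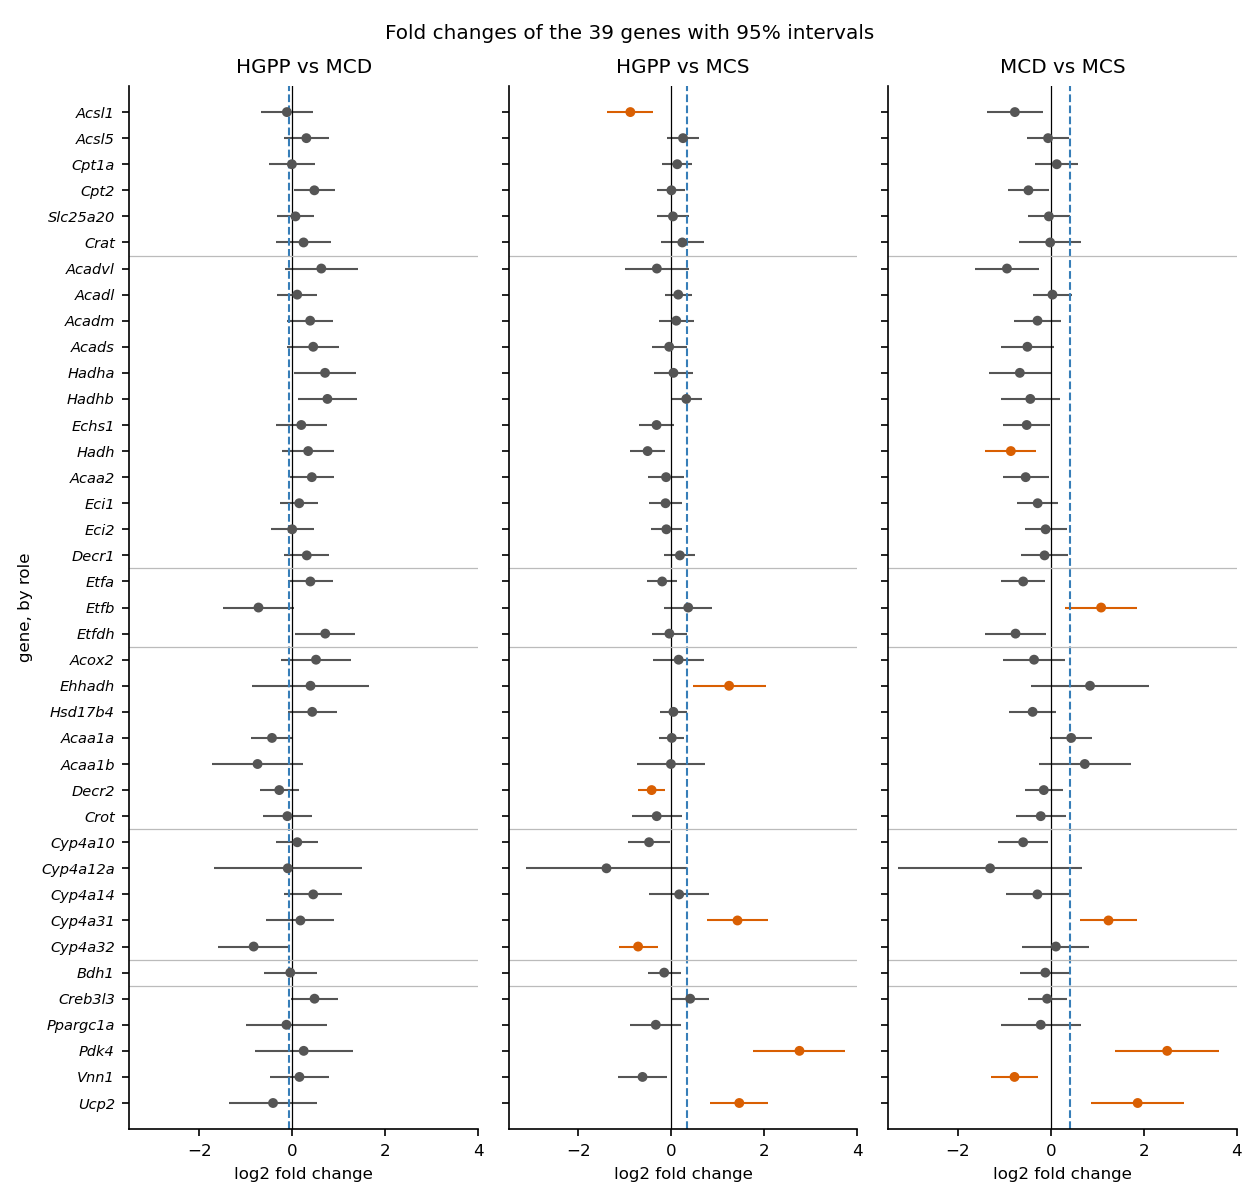
Points are log2 fold changes of the 39 genes in the 3 comparisons, lines are their 95% intervals from limma, and orange marks an adjusted p under 0.05. The dashed blue line is the median of all 13817 genes, at -0.07, 0.33 and 0.40, and no gene is orange in HGPP vs MCD.

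Activation and entry genes sit upstream of the spiral. Acsl1 (ENSMUSG00000018796, chr8:46471037-46536051), the main acyl-CoA synthetase of liver, had an FPKM of 55.6, 44.1 and 64.0 in HGPP livers, 51.5, 48.1 and 80.1 in MCD livers, and 103, 74.4 and 129 in MCS livers. Every HGPP liver lay below every MCS liver, while 1 MCD liver reached above the lowest MCS liver. Acsl1 fell by 0.88 ± 0.22 on the log2 scale (SE) in HGPP vs MCS (adjusted p = 0.0261), and its change of -0.77 ± 0.27 in MCD vs MCS missed the threshold (adjusted p = 0.0638). The first call was lost without HGPP replicate 1 or 2 (adjusted p = 0.0520 and 0.0941) and without MCS replicate 1 or 3 (0.0575 and 0.0787), and also with no filter on low values (0.0916) or no trend in the variance fit (0.0576).

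Cpt1a, the carnitine palmitoyltransferase of the outer membrane and the step at which malonyl-CoA controls entry, averaged 68.5 ± 9.0 FPKM in HGPP, 69.3 ± 14.7 in MCD and 62.5 ± 4.17 in MCS (SD, n = 3 each). Its intervals reached from -0.50 to 0.49 in HGPP vs MCD and from -0.33 to 0.59 in MCD vs MCS. Cpt2, which turns the carnitine ester back into acyl-CoA inside the mitochondrion, had 84.3, 77.5 and 76.2 FPKM in HGPP livers, 53.2, 67.0 and 51.5 in MCD livers, and 84.5, 71.6 and 82.3 in MCS livers. All 3 MCD livers lay below the other 6. The log2 difference of Cpt2 was 0.48 ± 0.19 in HGPP vs MCD (adjusted p = 0.334) and -0.48 ± 0.20 in MCD vs MCS (adjusted p = 0.102). The carnitine-acylcarnitine carrier Slc25a20 ranged over only 36.4 to 38.4 FPKM in HGPP, 32.8 to 38.1 in MCD and 29.6 to 41.7 in MCS. The synthetase Acsl5 and the carnitine acetyltransferase Crat passed the adjusted p in none of the 3 comparisons.

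The mitochondrial spiral begins with acyl-CoA dehydrogenases of decreasing chain length. Acadvl, for very long chains, had 48.7, 25.9 and 56.4 FPKM in HGPP livers, 20.9, 42.2 and 21.8 in MCD livers, and 54.7, 37.5 and 66.6 in MCS livers. The livers of MCD replicates 1 and 3 were the lowest of all 9, and the groups overlapped in each comparison. Acadvl differed by -0.94 ± 0.31 in MCD vs MCS (adjusted p = 0.0528) and by 0.63 ± 0.35 in HGPP vs MCD (adjusted p = 0.452). Of its exon positions 42.9% are shared with Dvl2 on the other strand, and the counting in the sources used here is not stated to use strand. Acadm, for medium chains, and Acads, for short chains, also had their lowest mean in MCD, with overlapping livers. Acadm averaged 127 FPKM in HGPP, 98.4 in MCD and 119 in MCS, and Acads averaged 92.9 FPKM in HGPP, 69.9 in MCD and 96.8 in MCS. Acadl, for long chains, varied little, from 170 to 179 FPKM in HGPP, 152 to 174 in MCD and 150 to 167 in MCS.

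The later steps are carried out by the trifunctional protein for long chains and by separate enzymes for shorter ones. Hadha, the alpha subunit with hydratase and dehydrogenase activity, had 44.7, 41.1 and 56.8 FPKM in HGPP livers, 19.5, 44.5 and 27.4 in MCD livers, and 53.9, 36.3 and 48.5 in MCS livers. Hadhb, the beta subunit with thiolase activity, had 40.9, 41.4 and 45.9 FPKM in HGPP livers, 17.6, 39.6 and 22.9 in MCD livers, and 37.5, 29.1 and 36.6 in MCS livers. In both subunits the liver of MCD replicate 2 was near the HGPP livers and the other two MCD livers were far below them. The log2 difference in HGPP vs MCD was 0.71 ± 0.30 for Hadha (adjusted p = 0.343) and 0.76 ± 0.28 for Hadhb (adjusted p = 0.302). These had the lowest unadjusted p of the spiral, 0.0389 and 0.0243. The ratio of Hadha to Hadhb in FPKM ranged from 0.991 to 1.24 in HGPP, 1.11 to 1.20 in MCD and 1.25 to 1.44 in MCS.

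Hadha (chr5:30118304-30155162, minus strand) and Hadhb (chr5:30155248-30184593, plus strand) lie head to head on chromosome 5 with 85 bases between them in GENCODE vM21. Because the pair shares its upstream sequence, the promoter window of Hadhb is given, from 250 bases before to 50 bases after the RefSeq start on GRCm38.p6 (chr5:30155003-30155302, plus strand). Capitals mark the 228 bases that also belong to the corresponding window of Hadha.
Hadhb promoter: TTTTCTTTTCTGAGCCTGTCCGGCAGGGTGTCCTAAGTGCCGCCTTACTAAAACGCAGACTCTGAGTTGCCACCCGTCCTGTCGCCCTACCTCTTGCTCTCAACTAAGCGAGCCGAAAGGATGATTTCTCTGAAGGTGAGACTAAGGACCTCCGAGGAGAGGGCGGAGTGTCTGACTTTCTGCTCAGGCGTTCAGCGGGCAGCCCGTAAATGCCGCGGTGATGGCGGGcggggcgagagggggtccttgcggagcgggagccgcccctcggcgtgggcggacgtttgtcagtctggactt

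Hadh (ENSMUSG00000027984, chr3:131233419-131272101), the 3-hydroxyacyl-CoA dehydrogenase for short and medium chains, had 61.4, 49.1 and 65.9 FPKM in HGPP livers, 37.8, 65.0 and 39.4 in MCD livers, and 92.8, 70.3 and 88.5 in MCS livers. All 6 livers on the deficient diet lay below the 3 MCS livers. Hadh fell by 0.86 ± 0.25 on the log2 scale in MCD vs MCS (adjusted p = 0.0341). The change of Hadh in HGPP vs MCS was -0.51 ± 0.17 (adjusted p = 0.0613). The MCD call held without MCD replicate 2 (adjusted p = 0.0130) and was lost without MCD replicate 1 or 3 (0.0721 and 0.109) and without MCS replicate 1, 2 or 3 (0.120, 0.0530 and 0.114), and also with no filter (0.0806) or no trend (0.0627).

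Acaa2, the thiolase that ends the cycle and the most abundant mitochondrial member, had 483, 536 and 498 FPKM in HGPP livers, 335, 411 and 388 in MCD livers, and 662, 462 and 537 in MCS livers. The MCD livers were again the lowest 3 of 9. Its log2 difference was 0.42 ± 0.21 in HGPP vs MCD (adjusted p = 0.409) and -0.54 ± 0.22 in MCD vs MCS (adjusted p = 0.105). Echs1, the short-chain enoyl-CoA hydratase, had 23.2, 15.9 and 20.2 FPKM in HGPP livers, 14.5, 23.0 and 14.8 in MCD livers, and 23.6, 23.2 and 26.5 in MCS livers. Both deficient-diet groups lay below MCS without overlap for Echs1, although HGPP replicate 1 and MCS replicate 2 were equal at this rounding, by -0.32 ± 0.17 in HGPP (adjusted p = 0.20) and -0.52 ± 0.23 in MCD (adjusted p = 0.124). The auxiliary enzymes for unsaturated chains, the isomerases Eci1 and Eci2 and the reductase Decr1, differed by at most 0.31 in either direction in any comparison, and none passed the adjusted p.

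**Figure D3:**
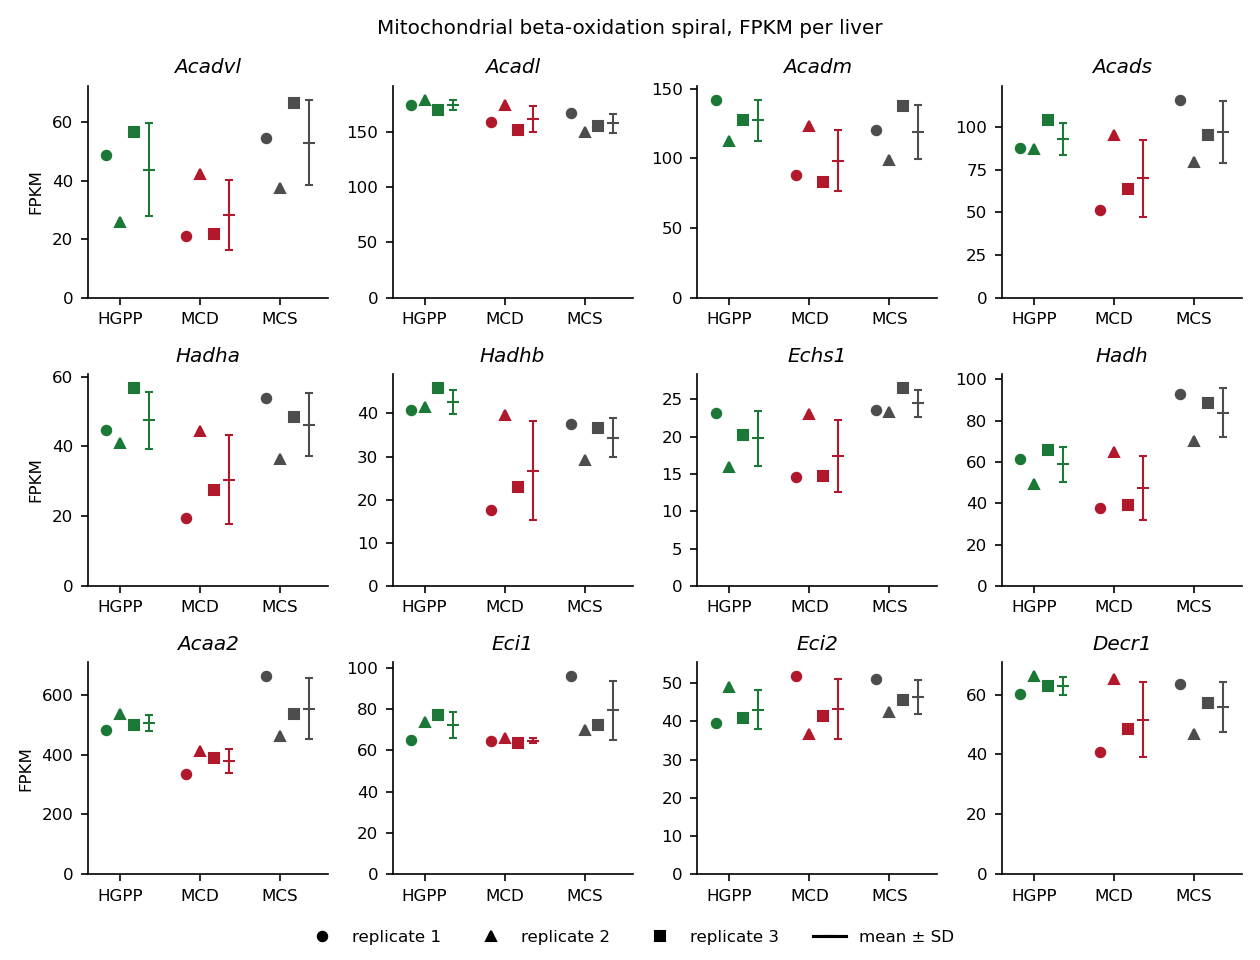
FPKM of the 12 spiral genes in each liver, with marker shape for the replicate and a bar for the mean ± SD of 3 livers. In 11 of the 12 panels MCD replicate 2 is the highest MCD liver, and in all 12 MCS replicate 2 is the lowest MCS liver.

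Across the spiral, the same livers stood at the ends of their groups. MCD replicate 2 was the highest of its group in 11 of the 12 spiral genes and in 17 of the 21 mitochondrial members, against 51.2% of all genes, and MCD replicate 1 was the lowest in 8 of the 12, against 45.8% of all genes. MCS replicate 2 was the lowest of its group in all 12 spiral genes and in 31 of all 39 members, against 26.6% of all genes. Summed over the 12 genes, the spiral had 1270.5, 1277 and 1326 FPKM in HGPP livers, 901, 1186 and 967 in MCD livers, and 1539, 1146 and 1367 in MCS livers. The HGPP livers were close to each other and above all MCD livers, and they lay within the MCS range. Leaving out MCD replicate 2 gave the spiral a median log2 fold change of 0.53 in HGPP vs MCD, against 0.37 with all livers, and leaving out MCD replicate 1 gave 0.23. In HGPP vs MCS the spiral's median was -0.08 with all livers and ranged from -0.18 without MCS replicate 2 to 0.06 without MCS replicate 1. Under median-of-ratios scaling it was -0.43 with 0 of 12 genes above 0.

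Transcripts of the mitochondrial genome, 13 genes, took 6.28%, 6.95% and 5.86% of the reads in HGPP livers, 10.5%, 6.56% and 18.0% in MCD livers, and 4.59%, 8.01% and 5.73% in MCS livers. Their share was highest in the MCD livers in which the nuclear-encoded spiral was lowest, replicates 1 and 3, and within MCS it was highest in replicate 2. The RNA integrity listed with the study was also lowest in MCD replicates 1 and 3. It was not analysed here, and its part in these levels was not tested. With FPKM rescaled to the reads outside these 13 genes, an alternative chosen after the data had been seen, the spiral's median was 0.28 in HGPP vs MCD with 11 of 12 genes above 0, and -0.38 in MCD vs MCS. The number of members past the adjusted p stayed at 0 and 6 in these comparisons and at 7 in HGPP vs MCS.

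Electrons from the acyl-CoA dehydrogenases pass through the electron transfer flavoprotein, a dimer of Etfa and Etfb, to its dehydrogenase Etfdh. Etfa had 215, 180 and 192 FPKM in HGPP livers, 147, 182 and 122 in MCD livers, and 221, 208 and 245 in MCS livers. MCD and MCS livers did not overlap (-0.59 ± 0.21, adjusted p = 0.0695), and the difference in HGPP vs MCD was 0.39 ± 0.22 (adjusted p = 0.450). Etfdh averaged 30.4 ± 2.35 FPKM in HGPP, 19.6 ± 8.39 in MCD and 31.7 ± 6.14 in MCS (SD, n = 3 each), and its log2 difference in HGPP vs MCD was 0.71 ± 0.29 (adjusted p = 0.332).

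Etfb (ENSMUSG00000004610, chr7:43444083-43457800) went the other way, with 3.80, 5.34 and 4.16 FPKM in HGPP livers, 9.94, 4.11 and 9.50 in MCD livers, and 2.64, 4.29 and 3.44 in MCS livers. MCD replicates 1 and 3 stood above all other livers and MCD replicate 2 lay among them. Etfb rose by 1.08 ± 0.35 in MCD vs MCS (adjusted p = 0.0496). The call was lost without MCD replicate 1 or 3 (adjusted p = 0.113 and 0.163), and without MCS replicate 1, 2 or 3 (0.165, 0.0632 and 0.123). With all livers, the call of Etfb was also lost with TPM (0.0543), median-of-ratios scaling (0.247), quantile normalization (0.307), no filter (0.129), no trend (0.0708), a pseudocount of 0.01 or 1 (0.0523 and 0.0605) and the voom fit on recovered reads (0.0818). Its level was far below that of its partner, with a ratio of Etfa to Etfb of 33.8 to 56.6 in HGPP, 12.9 to 44.1 in MCD and 48.5 to 83.8 in MCS. Of the exon positions of Etfb 58.2% are shared with other genes on the same strand (Gm45233 and Mir7051), where fragments may be left uncounted, so its level is uncertain.

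Peroxisomal members gave no common direction. Ehhadh (ENSMUSG00000022853, chr16:21761287-21787807), the bifunctional hydratase and dehydrogenase of the straight-chain route and a standard PPAR-alpha target, had 176, 344 and 291 FPKM in HGPP livers, 70.3, 408 and 269 in MCD livers, and 148, 63.6 and 141 in MCS livers. Every HGPP liver lay above all MCS livers, and the MCD livers spanned both. Ehhadh rose by 1.24 ± 0.35 in HGPP vs MCS (adjusted p = 0.0381), and its change of 0.85 ± 0.57 in MCD vs MCS did not pass (adjusted p = 0.298). Without MCD replicate 1 the MCD change was 1.59 (adjusted p = 0.0129). The HGPP call was lost without HGPP replicate 2 or 3 (adjusted p = 0.139 and 0.104), and without MCS replicate 2 or 3 (0.0883 and 0.0603). It was also lost under median-of-ratios scaling (0.89, adjusted p = 0.177), quantile normalization (0.0604), no filter (0.14), no trend (0.0717) and 1 fit over 9 libraries (0.157). The difference of Ehhadh in HGPP vs MCD was 0.40 ± 0.56.

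Acaa1b and Acaa1a encode peroxisomal thiolases that lie 182582 bases apart on chromosome 9. Acaa1b had 396, 733 and 534 FPKM in HGPP livers, 456, 1007 and 1587 in MCD livers, and 788, 342 and 589 in MCS livers. It was the most abundant peroxisomal member, and its livers overlapped in all 3 comparisons. Acaa1a lay at 60.3 to 62.9 FPKM in HGPP, 69.6 to 102 in MCD and 60.0 to 63.0 in MCS, so that the MCD livers were above the other 6, by 0.44 ± 0.20 over MCS (adjusted p = 0.137). Of the 100-base stretches of Acaa1b transcripts 19.3% also occur in Acaa1a, and fragments from these cannot be assigned to 1 copy. Decr2 (ENSMUSG00000036775, chr17:26081208-26090337), the peroxisomal dienoyl-CoA reductase, had 70.2, 70.4 and 78.4 FPKM in HGPP livers, 83.0, 96.1 and 86.5 in MCD livers, and 102, 92.1 and 99.9 in MCS livers. The HGPP livers were the lowest 3 of 9. Decr2 fell by 0.43 ± 0.13 in HGPP vs MCS (adjusted p = 0.0479), and that call was lost without any 1 of the 6 livers (adjusted p from 0.0812 to 0.114), with TPM (0.0725), with no trend (0.111), in 1 fit over 9 libraries (0.0969) and with voom (0.0602).

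The D-bifunctional protein Hsd17b4 averaged 106 ± 6.59 FPKM in HGPP, 80.7 ± 23.0 in MCD and 103 ± 5.56 in MCS (SD, n = 3 each). The branched-chain oxidase Acox2 and the carnitine octanoyltransferase Crot overlapped between all groups, and no comparison of these 3 genes passed the adjusted p.

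The omega-oxidising Cyp4a members lie together on chromosome 4, with Cyp4a14, Cyp4a10, Cyp4a31 and Cyp4a32 separated by gaps of 21953 to 29999 bases. They hydroxylate the terminal carbon of fatty acids, and Cyp4a10 and Cyp4a14 are textbook PPAR-alpha targets. Cyp4a14, the most abundant member of all 39, had 1380.5, 1562 and 2002 FPKM in HGPP livers, 1211, 977 and 1419 in MCD livers, and 1817, 947 and 1772 in MCS livers. These livers overlapped throughout, with differences of 0.45 ± 0.28 in HGPP vs MCD (adjusted p = 0.489) and -0.29 ± 0.31 in MCD vs MCS (adjusted p = 0.521). Cyp4a10 averaged 212 ± 12.8 FPKM in HGPP, 197 ± 23.2 in MCD and 304 ± 84.2 in MCS (SD, n = 3 each), with both deficient-diet groups below all MCS livers but past the adjusted p in neither (0.125 and 0.104).

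Cyp4a31 (ENSMUSG00000028712, chr4:115563649-115579015) had 74.5, 63.2 and 137 FPKM in HGPP livers, 107, 70.6 and 58.5 in MCD livers, and 43.9, 27.6 and 27.5 in MCS livers. All 6 livers on the deficient diet lay above the 3 MCS livers. Cyp4a31 rose by 1.42 ± 0.29 in HGPP vs MCS (adjusted p = 0.0134) and by 1.24 ± 0.28 in MCD vs MCS (adjusted p = 0.0126), and HGPP differed from MCD by 0.18 ± 0.33 (adjusted p = 0.836). Both calls were lost without MCS replicate 3 (adjusted p = 0.0515 and 0.0608) under median-of-ratios scaling (0.0984 and 0.115) and with no filter (0.0734 and 0.0568).

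Cyp4a32 (ENSMUSG00000063929, chr4:115600969-115621602), its neighbour, had 11.6, 8.04 and 7.88 FPKM in HGPP livers, 9.01, 19.9 and 23.2 in MCD livers, and 13.5, 16.4 and 15.0 in MCS livers. The HGPP livers were below all MCS livers, and MCD replicates 2 and 3 were the highest of all. Cyp4a32 fell by 0.72 ± 0.18 in HGPP vs MCS (adjusted p = 0.0295), and its difference in HGPP vs MCD was -0.83 ± 0.35 (adjusted p = 0.342). The call was lost without HGPP replicate 2 or 3 (adjusted p = 0.0987 and 0.0926) and without MCS replicate 2 or 3 (0.0986 and 0.0770), and also with no filter (0.0715), no trend (0.0598) or 1 fit over 9 libraries (0.149). Of the 100-base stretches of its transcripts 18.2% also occur in Cyp4a10 or Cyp4a31, and 7.33% of those of Cyp4a31 are shared, so the 2 values could be mixed in part. Cyp4a12a, which male mouse liver expresses under growth hormone control, varied within groups from 1.53 to 5.19 FPKM in HGPP, 1.26 to 10.4 in MCD and 1.68 to 18.3 in MCS. It shares 35.8% of its 100-base stretches with Cyp4a12b.

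Bdh1, the mitochondrial enzyme that interconverts acetoacetate and 3-hydroxybutyrate, had 87.1, 66.7 and 80.6 FPKM in HGPP livers, 80.4, 108 and 58.5 in MCD livers, and 74.7, 93.3 and 92.7 in MCS livers. The 3 groups overlapped, and the intervals of Bdh1 reached from -0.61 to 0.53 in HGPP vs MCD, -0.66 to 0.43 in MCD vs MCS and -0.51 to 0.20 in HGPP vs MCS. Other genes of ketone body synthesis, use and export, 8 in a companion list, passed the adjusted p in 0 cases in HGPP vs MCD (0.0217% of all genes), 2 in MCD vs MCS (1 in each direction, against 22.1% of all genes) and 2 in HGPP vs MCS (both higher, against 16.4%). Acat1, which makes acetoacetyl-CoA, fell by 0.72 ± 0.22 in MCD vs MCS (adjusted p = 0.0435). Oxct1, which breaks ketone bodies down outside hepatocytes, rose in both deficient-diet groups, to 1.38, 2.42 and 1.89 FPKM in HGPP and 1.43, 7.15 and 5.91 in MCD, against 1.04, 0.674 and 0.722 in MCS. Slc16a1, a monocarboxylate transporter that carries ketone bodies and lactate, rose by 1.06 ± 0.28 in HGPP vs MCS (adjusted p = 0.0314).

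Among the fasting-response genes, Pdk4 changed most. Pdk4 (ENSMUSG00000019577, chr6:5483351-5496309) encodes a kinase that shuts off pyruvate dehydrogenase and so spares glucose while fat is burnt. It had 34.1, 84.4 and 62.6 FPKM in HGPP livers, 22.0, 77.4 and 63.2 in MCD livers, and 12.8, 4.08 and 10.8 in MCS livers. Every liver on the deficient diet lay above every MCS liver, with replicate 1 the lowest of both HGPP and MCD. Pdk4 rose by 2.75 ± 0.44 in HGPP vs MCS (6.75-fold, adjusted p = 0.00508) and by 2.51 ± 0.51 in MCD vs MCS (5.68-fold, adjusted p = 0.00878). HGPP and MCD livers differed by 0.25 with an interval from -0.81 to 1.31. Both calls against MCS held without each single liver (adjusted p up to 0.0448) and under median-of-ratios scaling (2.40 and 2.09), and the MCD call was lost with no filter on low values (0.0638). The promoter window of Pdk4, the member with the largest change, is given for reference (RefSeq, GRCm38.p6, chr6:5496229-5496528, minus strand).
Pdk4 promoter: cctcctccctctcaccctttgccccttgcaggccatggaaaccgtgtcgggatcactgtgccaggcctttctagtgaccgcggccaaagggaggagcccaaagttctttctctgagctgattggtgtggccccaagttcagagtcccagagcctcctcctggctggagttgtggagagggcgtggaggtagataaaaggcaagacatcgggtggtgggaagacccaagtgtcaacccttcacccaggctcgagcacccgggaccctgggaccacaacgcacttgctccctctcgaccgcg

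**Figure D4:**
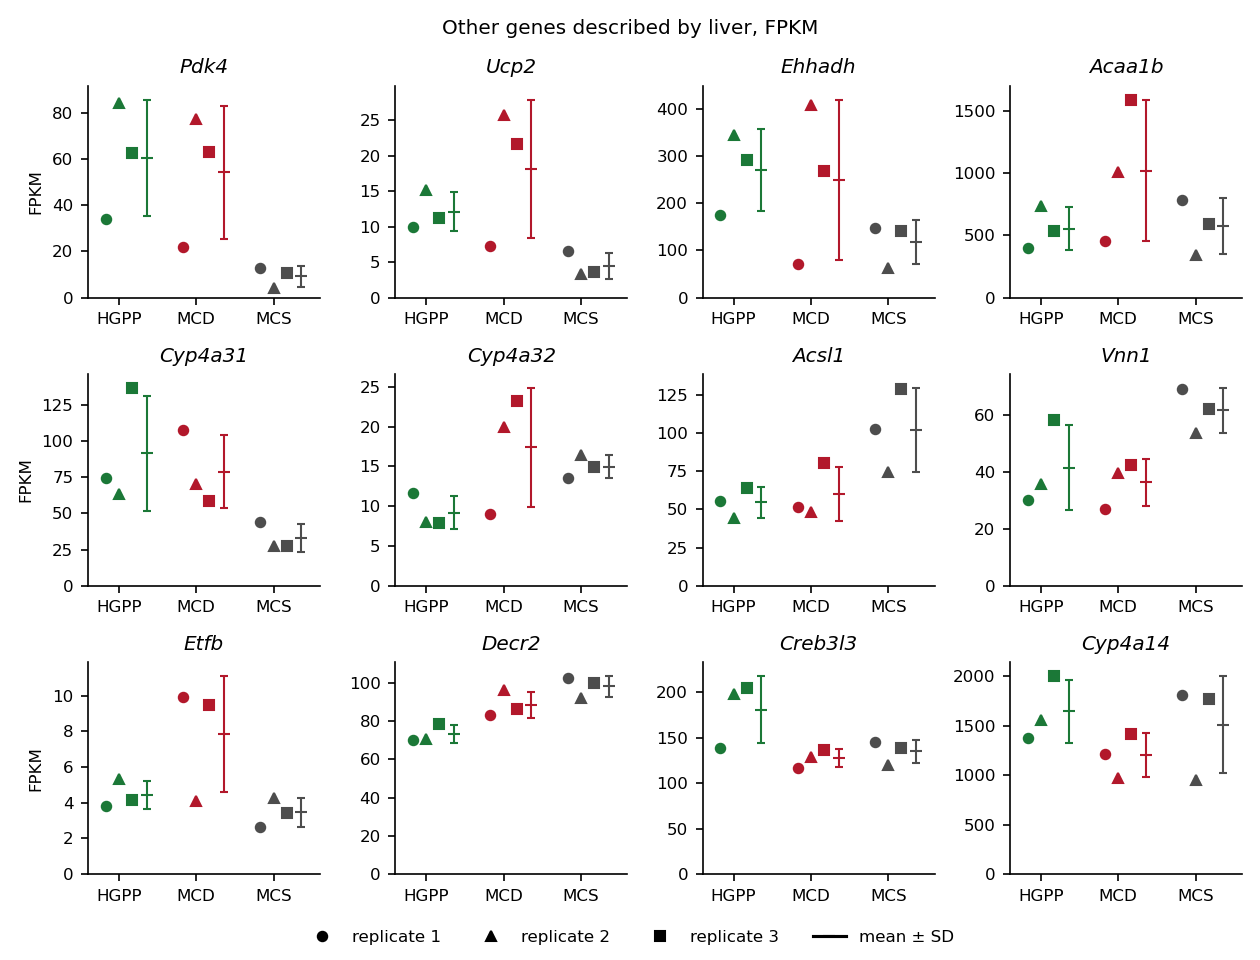
FPKM in each liver for 12 genes of the other roles that are described by liver in the text, with marker shape for the replicate and a bar for the mean ± SD of 3 livers. Pdk4 and Cyp4a31 separate both deficient-diet groups from MCS, Ehhadh and Acsl1 separate HGPP from MCS, and MCD replicate 1 is the lowest MCD liver for Pdk4, Ucp2, Ehhadh and Acaa1b.

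Ucp2 (ENSMUSG00000033685, chr7:100493337-100502020), a carrier of the inner mitochondrial membrane, had 9.97, 15.2 and 11.2 FPKM in HGPP livers, 7.22, 25.7 and 21.6 in MCD livers, and 6.62, 3.30 and 3.58 in MCS livers. All 6 livers on the deficient diet lay above the MCS livers, MCD replicate 1 by the smallest margin. Ucp2 rose by 1.46 ± 0.28 in HGPP vs MCS (adjusted p = 0.00998) and by 1.87 ± 0.45 in MCD vs MCS (adjusted p = 0.0172). The MCD call was lost without MCD replicate 2 or 3 (adjusted p = 0.0582 and 0.0750) and without MCS replicate 3 (0.0677), and both were lost under median-of-ratios scaling (0.0567 in HGPP and 0.0625 in MCD), quantile normalization (0.0548 and 0.0727) and no filter (0.0571 and 0.0837). Ucp2 is expressed by macrophages as well as by steatotic hepatocytes. The summed FPKM of 12 markers of monocyte-derived macrophages was 108, 253 and 87.9 in HGPP livers, 160, 780 and 557 in MCD livers, and 35.4, 28.6 and 33.0 in MCS livers. Of these markers 9 rose in HGPP vs MCS (16.4% of all genes) and 11 in MCD vs MCS (19.6%), with medians of 1.87 and 3.50, and none was at 0 in any library. In HGPP vs MCD all 12 macrophage markers lay below 0, with a median of -1.83. Of them 8 met the thresholds of the study, all lower (6.09% of all genes in either direction). The part of these cells in the level of Ucp2 was not tested, and in whole liver a change in the number of cells of a type cannot be told apart from a change in RNA per cell.

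Vnn1 (ENSMUSG00000037440, chr10:23894688-23905343), a pantetheinase and PPAR-alpha target, had 30.3, 35.9 and 58.5 FPKM in HGPP livers, 27.2, 39.6 and 42.5 in MCD livers, and 69.3, 53.7 and 62.3 in MCS livers. MCD livers were all below MCS livers, and HGPP replicate 3 reached into the MCS range. Vnn1 fell by 0.78 ± 0.23 in MCD vs MCS (adjusted p = 0.0342), and its change of -0.62 ± 0.23 in HGPP vs MCS did not pass (adjusted p = 0.0920). The MCD call was lost without MCD replicate 1 (adjusted p = 0.0714) and without MCS replicate 1, 2 or 3 (0.121, 0.0634 and 0.109), and also with no filter (0.0675) or no trend (0.0650). Creb3l3, a liver transcription factor of the fasting response, had 138, 199 and 205 FPKM in HGPP livers, 117, 129 and 137 in MCD livers, and 146, 120 and 139 in MCS livers. The HGPP livers were above all MCD livers, by 0.48 ± 0.22 (adjusted p = 0.374). Ppargc1a, the coactivator that drives oxidative gene programmes, was low, at 1.84 to 2.78 FPKM in HGPP, 1.49 to 4.51 in MCD and 2.35 to 3.45 in MCS, with no comparison past the adjusted p.

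Other targets of PPAR-alpha, 18 genes in a companion list, rose in HGPP vs MCS in 7 cases (16.4% of all genes) with none lower and a median of 0.42, and in MCD vs MCS in 3 cases (19.6%) with 1 lower (2.55%) and a median of -0.04. In HGPP vs MCD the median was 0.54 with 15 of 18 above 0, but none passed the adjusted p, and 3 (Acot1, Acot2 and Plin2) met the thresholds of the study, all higher in HGPP (6.09% of all genes in either direction). Cidec, a lipid droplet protein, had 63.6, 115 and 108 FPKM in HGPP livers, 22.6, 99.3 and 41.6 in MCD livers, and 6.95, 4.79 and 5.47 in MCS livers. Its log2 fold change was 4.0 ± 0.24 in HGPP vs MCS (adjusted p = 0.000127) and 2.98 ± 0.44 in MCD vs MCS (adjusted p = 0.00261). Acot2, a mitochondrial acyl-CoA thioesterase, had 62.6, 98.3 and 78.7 FPKM in HGPP livers, 21.5, 66.2 and 32.8 in MCD livers, and 18.7, 7.34 and 12.6 in MCS livers. Every liver on the deficient diet lay above every MCS liver for both genes, and in each the liver of MCD replicate 2 stood among the HGPP values. Aqp7, a glycerol channel, rose by 2.51 ± 0.30 in HGPP vs MCS (adjusted p = 0.00168) and by 3.04 ± 0.43 in MCD vs MCS (adjusted p = 0.00234) at levels of no more than 2.07 FPKM.

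Among 30 further peroxisomal genes, 4 fell and none rose in HGPP vs MCS, against 2.48% lower and 16.4% higher over all genes. In MCD vs MCS 3 fell and none rose, against 2.55% and 19.6%, and none passed in HGPP vs MCD. Pecr, a peroxisomal enoyl-CoA reductase, had 61.1, 39.7 and 54.5 FPKM in HGPP livers, 54.5, 48.6 and 37.5 in MCD livers, and 105, 102 and 122 in MCS livers. Both deficient-diet groups were about as low, and Pecr fell by 1.10 ± 0.18 in HGPP (adjusted p = 0.00550) and by 1.23 ± 0.21 in MCD (adjusted p = 0.00430). Cat, the peroxisomal catalase, fell by 0.73 ± 0.19 in HGPP vs MCS (adjusted p = 0.0282) and by 0.74 ± 0.22 in MCD vs MCS (adjusted p = 0.0388). Nudt7, a peroxisomal coenzyme A hydrolase, fell by 0.67 ± 0.20 in MCD vs MCS (adjusted p = 0.0367).

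The 13 tested genes of the rest of the omega route gave 2 higher and 2 lower in HGPP vs MCS, against 16.4% and 2.48% of all genes, and 2 higher and 3 lower in MCD vs MCS, against 19.6% and 2.55%. Cyp4f14, a liver fatty acid hydroxylase, had 24.1, 20.1 and 28.6 FPKM in HGPP livers, 16.7, 11.5 and 15.0 in MCD livers, and 42.3, 44.0 and 44.3 in MCS livers. The 3 groups were fully separated, and Cyp4f14 had log2 fold changes of -0.85 ± 0.16 in HGPP vs MCS (adjusted p = 0.00861), -1.61 ± 0.20 in MCD vs MCS (adjusted p = 0.00167) and 0.76 ± 0.23 in HGPP vs MCD (adjusted p = 0.236). Cyp4f16 and Cyp4f18, the second of which is known from myeloid cells, rose against MCS by 1.73 ± 0.28 and 1.86 ± 0.41 in HGPP and by 2.21 ± 0.35 and 3.33 ± 0.39 in MCD.

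Of 17 tested genes of other mitochondrial oxidation, 1 fell in HGPP vs MCS, against 2.48% of all genes (Gcdh, the glutaryl-CoA dehydrogenase of lysine breakdown, by 0.53 ± 0.14) and 2 rose in MCD vs MCS, against 19.6%. These were Acss1, an acetyl-CoA synthetase, and Cpt1c, a carnitine palmitoyltransferase known from brain, both at no more than 1.44 FPKM. Among 21 tested regulators, 2 rose and 2 fell in HGPP vs MCS, against 16.4% and 2.48% of all genes, and 1 fell in MCD vs MCS, against 2.55%. Acaca, which makes malonyl-CoA, had 9.67, 7.68 and 7.18 FPKM in HGPP livers, 6.70, 6.61 and 4.30 in MCD livers, and 3.44, 5.23 and 4.28 in MCS livers, and it rose by 0.91 ± 0.20 in HGPP vs MCS (adjusted p = 0.0180). The other pyruvate dehydrogenase kinases split, with Pdk1 lower in HGPP vs MCS (-0.90 ± 0.23) and MCD vs MCS (-0.80 ± 0.21) and Pdk3 higher in HGPP vs MCS (1.14 ± 0.29) at no more than 0.426 FPKM in that group.

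**Figure D5:**
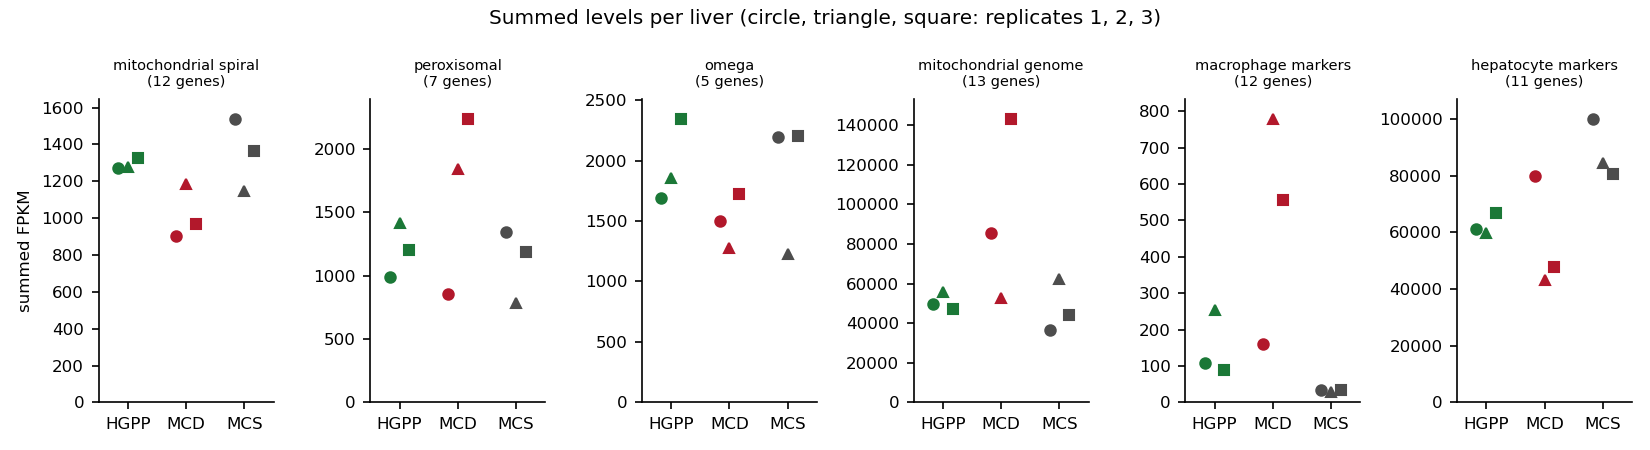
Summed FPKM in each liver for the mitochondrial spiral, peroxisomal and omega members, transcripts of the mitochondrial genome, and markers of macrophages and hepatocytes. The spiral sums of the HGPP livers lie at 1270.5 to 1326, above the MCD livers, and macrophage marker sums are highest in MCD replicates 2 and 3, at 780 and 557.

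Markers of hepatocytes, the cells that carry out most of these reactions, summed to 61078, 59840 and 66928 FPKM in HGPP livers, 79874, 43219 and 47768 in MCD livers, and 100108, 84487 and 80579 in MCS livers. Of 11 tested markers 2 fell in HGPP vs MCS (2.48% of all genes) and 2 in MCD vs MCS (2.55%), with medians of -0.44 and -0.64, and all 11 lay below 0 in both. In HGPP vs MCD the median of these markers was 0.31, with 8 of 11 above 0. The spiral's median there was 0.37, and that of all genes was -0.07. None of the hepatocyte markers was at 0 in any library. Among the MCD livers these markers were highest in replicate 1, and the spiral was highest in replicate 2. Genes with higher expression in male liver, 10 in the list, fell in 5 cases and rose in 1 in HGPP vs MCS (2.48% and 16.4% of all genes), and fell in 8 in MCD vs MCS (2.55%). The part of any of these shifts in the members' levels was not tested.

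The members were also compared for 2 binding motifs in their promoter windows. Of the 39 genes 30 had at least 1 window in the RefSeq table, 34 windows in all. The core nuclear receptor motif AGGTCA, searched on both strands, was in 14.7% of these windows, 5 in number (Acadm, Acadvl, Cpt1a, Creb3l3 and Echs1), and in 16.3% of all 32851 windows of the same 300 bases. The direct repeat that PPAR-alpha binds with its partner RXR, searched as AGGNCA followed by any base and AGGNCA again, was in 0 member windows and in 0.381% of all windows. At so low a share, 34 windows would be likely to hold none, so this count says nothing about binding. Cyp4a10, Cyp4a14 and Vnn1, named above as PPAR-alpha targets, had no window, and sites outside the 300 bases were not searched. The window of Echs1 is given as an example, with AGGTCA at positions -83 to -78 from the start in capitals (chr7:140116372-140116671, minus strand).
Echs1 promoter: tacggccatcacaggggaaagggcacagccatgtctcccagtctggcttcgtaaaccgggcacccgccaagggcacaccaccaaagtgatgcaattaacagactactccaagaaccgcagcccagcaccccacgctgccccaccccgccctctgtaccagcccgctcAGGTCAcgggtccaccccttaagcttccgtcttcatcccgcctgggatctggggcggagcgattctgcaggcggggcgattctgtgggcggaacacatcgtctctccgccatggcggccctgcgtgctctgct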

How the data were processed

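Bulk RNA-seq was measured in 9 mouse livers, 3 per group. The deposited table holds FPKM values, which the authors computed per gene from read counts. Tools listed in the submitters' processing notes are STAR 2.7.7a, featureCounts 2.0.0 and fastp 0.20.1, whereas the methods of the study name Cutadapt, HTSeq and DESeq. No source used here names the genome build. Low values are whole multiples of 1 read for the exon lengths of GENCODE vM21 on GRCm38: 98.1% of 115777 values of up to 1000 reads came out whole within 0.02 reads. Gene positions are from that annotation. An FPKM of 0.1 stood for 1.15 reads per kilobase in the shallowest library, MCD replicate 1.

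Each pair of groups was fitted by limma 3.58.1 (R 4.3.3, empirical Bayes with a trend) on log2(FPKM + 0.1), for genes that reached 0.1 FPKM in at least 3 libraries, with Benjamini-Hochberg adjustment over all 13817 genes and a threshold of 0.05. Means are of FPKM ± SD, and fold changes are log2 ± SE. Python 3.11.15 with numpy 2.4.6, pandas 2.3.3 and matplotlib 3.10.9 did the rest. The fits were tested on simulated data with known changes in a few of 13817 genes. Of 100 genes changed by 1 on the log2 scale, 22 were called in HGPP vs MCD, 7 in MCD vs MCS and 29 in HGPP vs MCS. Most changes of this size were thus missed in the simulated data. Of 100 genes changed by 2, the fits called 73, 54 and 62 in the same order. In the real data 3060 genes passed in MCD vs MCS and 2602 in HGPP vs MCS, far more than were changed here. The adjusted p is then easier to pass, so the simulated counts do not carry over to the comparisons against MCS.

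The members and lists were chosen with earlier results of these data known. Values in every liver are given for members past the adjusted p or the thresholds of the study in any comparison and for the most abundant member of each role, 16 in all, and up to 3 genes are named per companion list. Cpt2, Acadvl, Hadha, Hadhb and Echs1 were added after their values were seen. Alternatives were TPM, median-of-ratios and quantile scaling, pseudocounts of 0.01 and 1, a filter at an FPKM of 1 or none, no trend, 1 fit over all 9 libraries, the replicate number as a block, and each library left out. A voom fit on recovered reads and rescaling without mitochondrial genome reads were chosen after seeing the data. Promoter windows are from RefSeq (GRCm38.p6). Each library is labelled as a separate liver.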

Additional observations from a re-analysis of the deposited data

How the results depend on the processing

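No member passed the adjusted p in HGPP vs MCD under any alternative with all livers, while the number of all genes called was 0 with no filter or with quantile normalization, 5 with TPM, 16 in 1 fit over 9 libraries and 1 with voom, against 3. In MCD vs MCS, the members called were 0 with no filter, 14 under median-of-ratios scaling (median -0.63) and 3 without a trend, against 6. All genes called were 1795 with no filter, 2250 under median-of-ratios scaling and 2956 without a trend, against 3060 in the pairwise fit. With quantile normalization 4 members and 1258 of all genes were called. In HGPP vs MCS, the members called were 2 with no filter, 4 in 1 fit over 9 libraries and 3 without a trend, against 7. All genes called were 1567 with no filter, 1420 in 1 fit over 9 libraries and 2014 without a trend, against 2602. Median-of-ratios scaling gave 6 members (median -0.35) and 1375 of all genes, and quantile normalization gave 5 members and 1201 of all genes.

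The deviations of same-numbered livers from their group means had correlations from -0.34 to 0.30 over the 9 pairs. The labels give these livers only a shared number, and such correlations cannot exclude shared handling. With the replicate number as a block, the members called were 0 in HGPP vs MCD, 3 in MCD vs MCS and 4 in HGPP vs MCS, and all genes called were 14, 1876 and 1585 in the same order of comparisons. The members called with the block were Cyp4a31, Pdk4 and Ucp2 against MCS in both groups, and Acsl1 in HGPP vs MCS. The calls of all other members were lost with it.

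Leaving out 1 library at a time gave 0 to 443 of all genes and 0 to 1 members in HGPP vs MCD, 1248 to 3629 of all genes and 1 to 13 members in MCD vs MCS, and 1025 to 2025 of all genes and 3 to 6 members in HGPP vs MCS, with medians of 0.14 to 0.31, -0.34 to -0.14 and -0.12 to 0.05. These fits also have fewer samples. Ranges by gene were taken only for the 16 members named by rule. Among these, the direction in HGPP vs MCD depended on single livers for Acsl1 (-0.25 to 0.12), Bdh1 (-0.26 to 0.18), Cyp4a31 (-0.15 to 0.42), Ehhadh (-0.35 to 0.92), Pdk4 (-0.31 to 0.61) and Vnn1 (-0.12 to 0.36). The same was so in HGPP vs MCS for Acaa1b (-0.34 to 0.26), Acaa2 (-0.24 to 0.022) and Cyp4a14 (-0.14 to 0.33), and in MCD vs MCS for Bdh1 (-0.33 to 0.11) and Cyp4a32 (-0.15 to 0.53). None of these passed the adjusted p with all livers in the comparison concerned.

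Of the 39 members, those above 0 numbered 6 under median-of-ratios scaling in HGPP vs MCS, against 19, and 14 without mitochondrial genome reads in MCD vs MCS, against 10. In HGPP vs MCD they numbered 25 to 29 over the alternatives with all livers, against 27. Among the 16 members named by rule, other alternatives turned the sign of Bdh1 in HGPP vs MCD (0.040 with TPM, 0.027 under median-of-ratios scaling), Cyp4a32 in MCD vs MCS (-0.31 under median-of-ratios scaling, -0.10 with quantile normalization), Creb3l3 in MCD vs MCS (0.013 without mitochondrial genome reads), and, in HGPP vs MCS, Acaa1b (0.019 with TPM, 0.040 with quantile normalization) and Cyp4a14 (-0.19 under median-of-ratios scaling). The cause was not tested.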
